A study of Rattus norvegicus with 6 samples.

Results

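The 7 genes described here build or anchor the contractile apparatus of striated and smooth muscle: Myh6, Tnni3, Tpm2, Tpm3, Dmd, Myh11 and Tagln. They were taken by gene symbol from the platform's annotation, each had 1 probe, and they are 7 of the 1113 array features with a single gene symbol (1185 features in all). Total RNA from whole rat hearts was hybridised, 1 array per heart, for 3 animals put on cardiopulmonary bypass (CPB, the diversion of blood through a pump and oxygenator in place of heart and lungs) and 3 sham-operated controls. The labels give no strain, age, drug, bypass length or time of sampling for either group, and they name cardiac inflammation and cytokines as the interest of the study. The comparison here asks whether the genes of heart muscle cells and of vessel wall muscle differed between bypass and sham hearts.

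Striated muscle contracts when myosin heavy chains of the thick filament pull on actin of the thin filament, and calcium binding to troponin moves tropomyosin off the myosin sites. Smooth muscle has no troponin: calcium acts through phosphorylation of its own myosin, and smooth muscle in the heart lies mainly in the walls of coronary vessels. Myh6 (alpha myosin heavy chain, the main cardiac myosin of adult rodents) and Tnni3 (cardiac troponin I, the inhibitory troponin subunit) are cardiomyocyte genes. Myh11 (smooth muscle myosin heavy chain) and Tagln (transgelin or SM22, an actin-binding protein) are smooth muscle genes. Tpm2 and Tpm3 (tropomyosins of several muscle types, Tpm3 also of the general cytoskeleton) and Dmd (dystrophin, which links actin to the membrane complex in heart, skeletal and smooth muscle) are shared.

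For the 2 cardiomyocyte genes, whose levels are contrasted with smooth muscle below, the bases just before an annotated transcription start are shown, since heart-restricted transcription is read from such regions. Both come from RefSeq (build GRCr8), which held windows for 5 of the 7 genes in the tables used here. Capitals mark 3 motifs found on either strand: GATAA (the core bound by GATA factors), CATTCC (the M-CAT element) and CANNTG (the E-box). The windows hold the 250 bases before the start, 5′ to 3′.
Myh6 (chr15:32411698-32411947, minus strand): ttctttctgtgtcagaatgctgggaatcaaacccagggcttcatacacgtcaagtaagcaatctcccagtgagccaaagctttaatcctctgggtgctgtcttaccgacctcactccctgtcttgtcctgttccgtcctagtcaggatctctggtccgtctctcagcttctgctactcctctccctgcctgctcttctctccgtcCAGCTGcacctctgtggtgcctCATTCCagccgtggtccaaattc
Tnni3 (chr1:78342321-78342570, plus strand): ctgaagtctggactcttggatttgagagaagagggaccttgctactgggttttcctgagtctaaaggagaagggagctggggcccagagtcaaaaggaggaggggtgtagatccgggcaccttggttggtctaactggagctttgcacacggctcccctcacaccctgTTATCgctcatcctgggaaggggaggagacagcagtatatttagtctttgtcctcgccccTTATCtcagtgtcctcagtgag
In the Myh6 window an E-box and an M-CAT element, 1 of each, began 45 and 23 bases before the start. The Tnni3 window held 2 GATA cores, which began 82 and 22 bases before the start, and neither of the other motifs. Of 33469 rat windows of this length, 23.5% held a GATA core, 12.1% an M-CAT element and 65.5% an E-box, so such matches are common. A further motif that was sought, the CArG box, had 0 matches in both windows and was held by 1.5% of all windows. The Myh6 start used by that table lies inside the RefSeq gene span (chr15:32388102-32413663), whose 5′ end on the minus strand is further upstream. These are matches of letters, and binding was not measured.

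The values of an array are whole-number steps above a lowest level that differs between arrays, so dim genes are measured coarsely. The lowest level was held by 10.7% to 47.3% of features per array, and array medians of the deposited values, on a log2 scale, spanned 8.51 to 9.84. In replicates 1 and 3 of both groups the median equalled the value 1 step above the lowest. Scaling arrays to the same median thus aligns near-lowest levels there, which limits every median-scaled difference below. None of the 7 genes was at the lowest level on any array, which holds for 498 of the 1185 features. Levels below are log2 intensities after quantile normalization, which gives all arrays the same distribution, and values as deposited stand beside them where they differ. The small number of arrays, 3 per group, sets the precision of all differences given here. In whole-heart RNA, fewer cells of a type and less RNA per cell cannot be told apart.

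The cardiomyocyte genes were among the brightest features of every heart, and the smooth muscle genes stood lower in the brightness order. Myh6 was the brightest or second brightest of the 1185 features on each array, and cardiac troponin T (Tnnt2) held the other of these 2 positions. Tnni3 was 5th to 9th brightest. Myh11 ranked 36th to 58th and Tagln 55th to 230th, so both cardiomyocyte genes outranked both smooth muscle genes on all 6 arrays. Tpm3 ranked 61st to 190th, while the dim genes Tpm2 and Dmd ranked 347th to 465th and 349th to 590th, in ties with other features. Brightness also depends on the probe, so these ranks are no ratio of transcript numbers between genes.

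None of the 7 genes passed the threshold between CPB and sham hearts. The limma fit over all features called 0 of 1185 at an adjusted p under 0.05 (0%), and 35 (2.95%) had an unadjusted p under 0.05, none of them one of the 7. Of the 7 genes 4 were nominally higher in CPB hearts and 3 lower, with a median log2 difference of 0.19 beside -0.03 over all features. Of all 1185 features 41.9% were higher by more than 0.005 and 52.2% lower. As deposited, 5 of the 7 were higher (Tpm2 by only 0.01) and 2 lower, beside an all-feature median of -0.29. Median scaling gave 6 higher and 1 lower, beside an all-feature median of 0.11. The shares of all features higher and lower on these scales are not given here. Groups did not overlap for 1 of the 7 genes (Tnni3) and for 50 of all 1185 features (4.22%), and with the values as deposited they did not part for any of the 7.

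Tnni3 was nominally higher after bypass. Its log2 intensity was 15.83, 15.96 and 15.96 in CPB replicates 1, 2 and 3 and 15.45, 15.69 and 15.21 in sham replicates 1, 2 and 3. All 3 CPB values lay above the sham values. These normalized values follow the rank of Tnni3, which was 6th, 5th and 5th brightest in CPB hearts and 8th, 7th and 9th in sham hearts. CPB replicates 2 and 3 thus share a value, and the small SD below is one of ranks. Group means were 15.91 ± 0.08 for CPB against 15.45 ± 0.24 for sham (SD, n = 3 each), which differ by 0.47 (SE 0.28, 95% interval -0.12 to 1.06; limma adjusted p = 0.909). Tnni3 stayed higher in CPB in all 13 alternative settings and passed the threshold in none. The replicate block and the fit without a variance trend keep the main difference by construction. As deposited, the groups overlapped: the values were 16.03, 16.05 and 15.45 in CPB hearts and 15.11, 15.90 and 15.25 in sham hearts. The SD on that scale was 0.34 for CPB and 0.42 for sham. Sham replicate 2 then stood above CPB replicate 3, although each CPB heart remained above the sham heart of the same number.

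Myh6, the other cardiomyocyte gene, gave no stable direction. After quantile normalization it took only 2 values, 17.70 as the second brightest feature (CPB replicates 1 and 2, sham replicate 1) and 18.01 as the brightest (CPB replicate 3, sham replicates 2 and 3). The value of -0.10 for CPB minus sham (SE 0.30, 95% interval -0.75 to 0.54; limma adjusted p = 0.999) thus reflects rank order alone. As deposited, Myh6 was at 17.78, 17.83 and 18.33 in CPB hearts and 17.23, 18.02 and 17.81 in sham hearts. Sham replicate 1 was the lowest of the 6 and CPB replicate 3 the highest, and the other 4 hearts lay between in mixed order. On that scale Myh6 was higher in CPB by 0.29 (SE 0.37; limma adjusted p = 0.884), and by 0.69 (SE 0.54; limma adjusted p = 0.934) with arrays scaled to the same median.

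**Figure D1:**
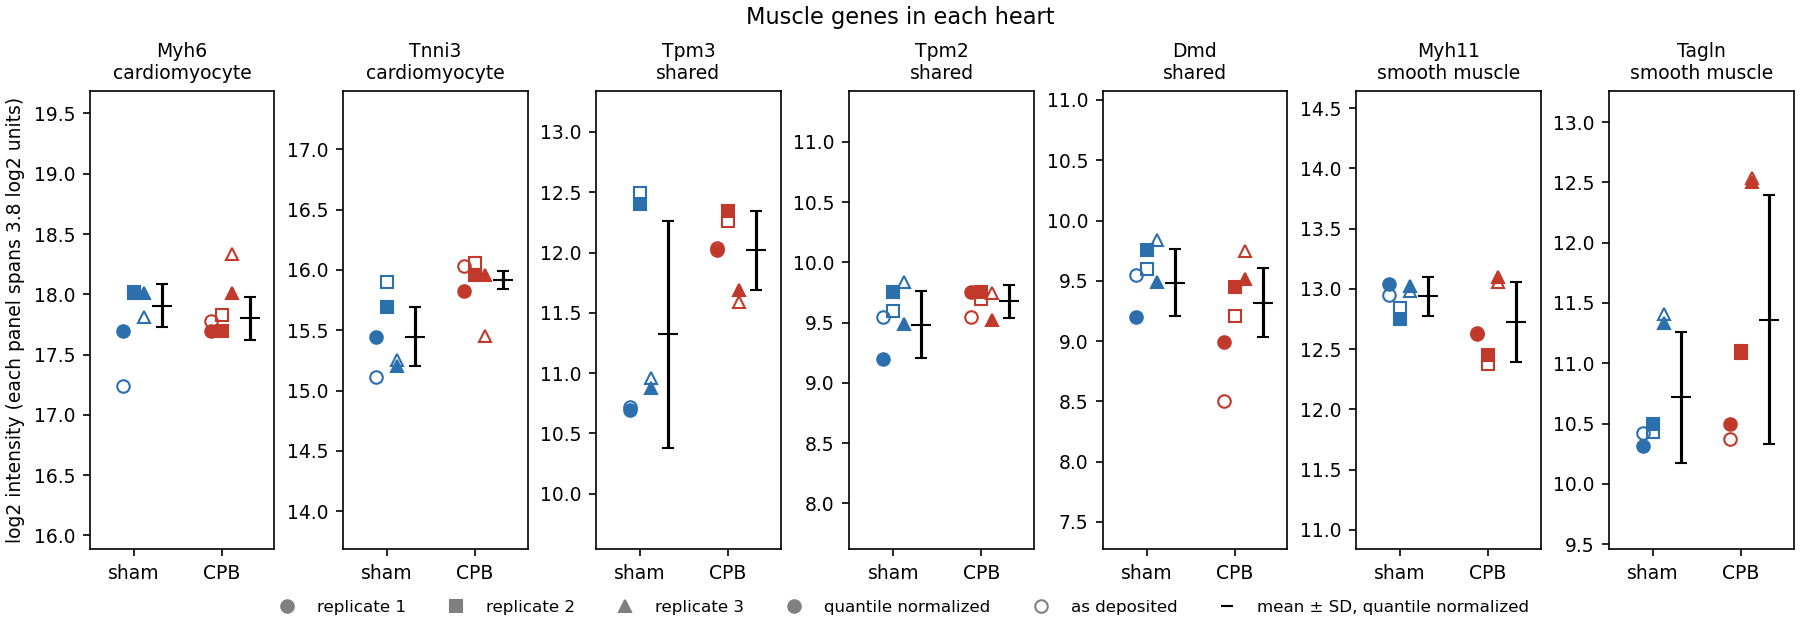
Log2 intensity of the 7 muscle genes (vertical axis, 3.8 log2 units in each panel) in sham and CPB hearts, with filled marks for quantile normalized values, open marks for values as deposited, and black bars for mean ± SD of the 3 normalized values. Tnni3 is the only gene whose filled marks do not overlap between groups, and Tagln and Tpm3 have the widest spread within groups.

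The smooth muscle genes pointed in opposite directions. Tagln was at 10.50, 11.08 and 12.50 in CPB replicates 1, 2 and 3 and at 10.32, 10.50 and 11.33 in sham replicates 1, 2 and 3. CPB replicate 3 stood highest by more than 1 log2 unit, sham replicate 3 came next, and CPB replicate 1 equalled sham replicate 2. Group means were 11.36 ± 1.03 for CPB against 10.72 ± 0.54 for sham (SD, n = 3 each), which differ by 0.65 (SE 0.45, 95% interval -0.30 to 1.59; limma adjusted p = 0.909). Without CPB replicate 3 the difference was 0.09, and without CPB replicate 1 it was 1.08. Each CPB heart stood above the sham heart of its number, but as deposited CPB replicate 1 lay under sham replicate 1 (10.37 against 10.42). In steps over the lowest level, Tagln stood at 3, 9 and 6 in sham hearts and at 6, 24 and 17 in CPB hearts.

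Myh11 varied less than Tagln over the 6 hearts, with a range of 0.64 against 2.19 on the log2 scale. Its log2 intensity was 12.63, 12.45 and 13.10 in CPB replicates 1, 2 and 3 and 13.04, 12.75 and 13.02 in sham replicates 1, 2 and 3. CPB replicates 1 and 2 were the lowest of the 6 hearts, and CPB replicate 3 was the highest. Group means were 12.73 ± 0.33 for CPB against 12.94 ± 0.16 for sham (SD, n = 3 each), which differ by -0.21 (SE 0.28, 95% interval -0.81 to 0.39; limma adjusted p = 0.974). It was -0.40 without CPB replicate 3 and -0.08 without CPB replicate 2. With arrays scaled to the same median the sign turned, to 0.15 (SE 0.51; limma adjusted p = 0.978).

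Among the shared genes, Tpm3 had the largest nominal difference under all 4 scalings and a wide spread between sham hearts. It was at 12.02, 12.35 and 11.69 in CPB replicates 1, 2 and 3 and at 10.69, 12.40 and 10.87 in sham replicates 1, 2 and 3. Sham replicate 2 was the highest of the 6 hearts, while the other two sham hearts lay below all 3 CPB hearts. Group means were 12.02 ± 0.33 for CPB against 11.32 ± 0.94 for sham (SD, n = 3 each), which differ by 0.70 (SE 0.40, 95% interval -0.16 to 1.55; limma adjusted p = 0.909). Without sham replicate 2 it was 1.22 (limma adjusted p = 0.376), and without sham replicate 1 it was 0.41, both short of the threshold. Sham replicates 1 and 3 each stood only 4 steps above their lowest level, against 45 steps for sham replicate 2. RefSeq lists 3 start windows for Tpm3, and the probe's place among its transcripts was not used here.

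Tpm2 and Dmd were close to the lowest level in most hearts. Tpm2 lay 3, 7 and 1 steps above it in CPB replicates 1, 2 and 3 and 1, 4 and 1 steps in sham replicates 1, 2 and 3. Dmd lay 1, 4 and 1 steps above it in CPB hearts and 1, 4 and 1 steps in sham hearts. Both genes thus shared a step, and an identical value, on 4 of the 6 arrays and parted only in CPB replicates 1 and 2, where Tpm2 was higher.

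In log2 intensity Tpm2 was at 9.76, 9.76 and 9.52 in CPB hearts and at 9.20, 9.76 and 9.49 in sham hearts. CPB minus sham was 0.19 (SE 0.35, 95% interval -0.55 to 0.93; limma adjusted p = 0.999). With the values as deposited it was 0.01 (SE 0.39; limma adjusted p = 0.998). Dmd was at 8.99, 9.45 and 9.52 in CPB hearts and at 9.20, 9.76 and 9.49 in sham hearts. Its groups overlapped, with a difference of -0.16 (SE 0.35, 95% interval -0.92 to 0.59; limma adjusted p = 0.999), and of -0.51 as deposited (SE 0.41; limma adjusted p = 0.884). For Dmd the number of steps was the same in CPB and sham hearts of each replicate number, so its log2 difference holds no change in step count.

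**Figure D2:**
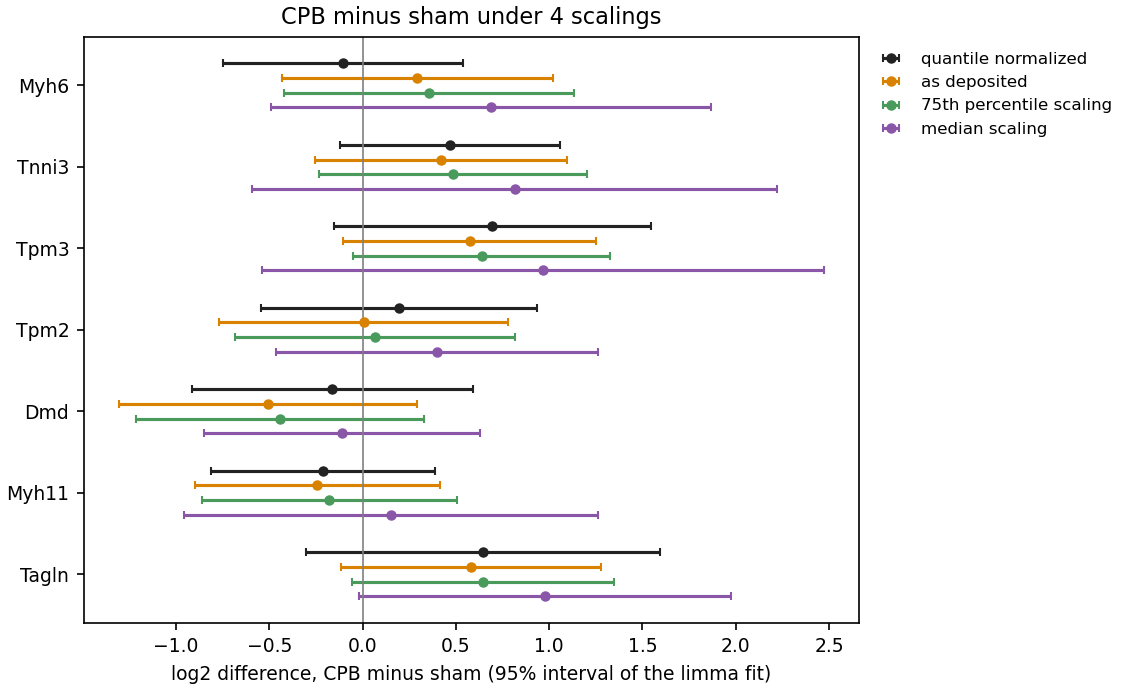
CPB minus sham log2 difference of each gene (horizontal axis) with the 95% interval of the limma fit under 4 scalings of the arrays. Every interval includes 0; Tnni3, Tpm3, Tagln and Tpm2 stay on the higher side, Dmd stays on the lower side, and Myh6 and Myh11 change sign.

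Scaling by 1 factor per array moves all genes together, so each difference was also set against the median of all features. That median was -0.03 after quantile normalization, -0.29 as deposited, -0.22 with arrays scaled to their 75th percentile and 0.11 with arrays scaled to their median. The 75th percentile was that of the 498 features above the lowest level on all arrays, and the array median that of all 1185 features. Relative to it, the deposited differences were 0.58 for Myh6, 0.71 for Tnni3, 0.86 for Tpm3, 0.87 for Tagln, 0.29 for Tpm2, 0.05 for Myh11 and -0.22 for Dmd. After quantile normalization the same quantities were -0.07, 0.50, 0.72, 0.67, 0.22, -0.18 and -0.13. Tnni3, Tpm3, Tagln and Tpm2 were above the all-feature median on both scales and Dmd below it, while Myh6 and Myh11 switched sides. Only 498 of the 1185 features exceeded the lowest level on all arrays, so dim features weigh heavily in that median. The lowest level, 7.42 to 9.12 in log2 as deposited, adds more to the log2 value of a dim feature than of a bright one. Its part in these relative values was not tested.

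A ratio of 2 genes within an array is free of any factor that multiplies the whole array, so cardiomyocyte genes were set against smooth muscle genes in that form, with values as deposited. The log2 ratio of Myh6 over Myh11 was 5.15, 5.45 and 5.28 in CPB replicates 1, 2 and 3 and 4.28, 5.18 and 4.82 in sham replicates 1, 2 and 3. Each CPB heart was above the sham heart of its number, but CPB replicate 1 lay just under sham replicate 2. Mean ratios were 5.30 ± 0.15 for CPB against 4.76 ± 0.45 for sham (SD, n = 3 each) and differed by 0.53 (two-sided exact permutation p = 0.2, adjusted p = 0.4 over 4 ratios). With quantile normalized values the difference was 0.11 (two-sided exact permutation p = 0.7), and Myh6 over Myh11 was then higher in CPB for replicate number 1 alone. Without sham replicate 1, the lowest of the 6 hearts, the difference as deposited was 0.30. The smallest p that 3 against 3 arrays allow is 0.1.

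The ratio of Tnni3 over Myh11 behaved alike in sign and overlap. It was 3.40, 3.68 and 2.40 in CPB hearts and 2.16, 3.06 and 2.27 in sham hearts, again higher in CPB for each of the 3 replicate numbers. The difference of means was 0.66 (two-sided exact permutation p = 0.2, adjusted p = 0.4). CPB replicate 3 was the only CPB heart under sham replicate 2, and without it the difference was 1.04. Without CPB replicate 2, which had the highest ratio, it was 0.40.

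Against Tagln the same cardiomyocyte genes gave the opposite sign. Myh6 over Tagln was 7.41, 6.73 and 5.79 in CPB hearts and 6.81, 7.59 and 6.40 in sham hearts, a difference of -0.29 (two-sided exact permutation p = 0.6, adjusted p = 0.8). With quantile normalized values that difference was -0.75 (two-sided exact permutation p = 0.2). Tnni3 over Tagln was 5.66, 4.96 and 2.91 in CPB hearts and 4.69, 5.47 and 3.85 in sham hearts, a difference of -0.16 (two-sided exact permutation p = 1, adjusted p = 1). CPB replicate 3 had the lowest ratio in both cases, and without it the differences turned to 0.14 and 0.64. Without sham replicate 2 they were 0.04 and 0.24. The contrast between cardiomyocyte and smooth muscle genes therefore depended on which smooth muscle gene was used.

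**Figure D3:**
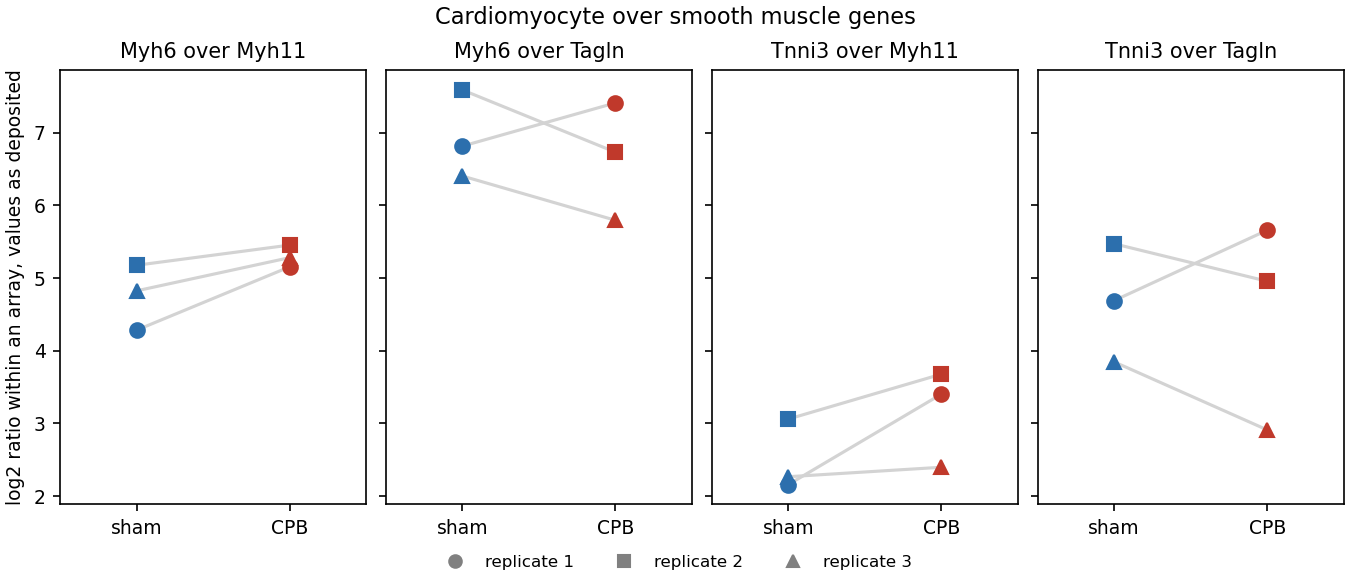
Log2 ratio of each cardiomyocyte gene over each smooth muscle gene within an array (vertical axis, values as deposited) in sham and CPB hearts, where grey lines join hearts of the same replicate number. Both ratios over Myh11 are higher in CPB for all 3 numbers, and both ratios over Tagln are higher for number 1 alone.

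Within each class the 2 genes were also compared directly, as a description chosen after the values were seen. Myh11 over Tagln was 2.26, 1.28 and 0.51 in CPB replicates 1, 2 and 3 and 2.53, 2.41 and 1.58 in sham replicates 1, 2 and 3. Each CPB heart was lower than the sham heart of its number, and CPB replicate 1 overlapped the sham range. Myh6 over Tnni3 was 1.75, 1.78 and 2.88 in CPB hearts and 2.12, 2.12 and 2.56 in sham hearts. Its CPB values lay on both sides of the sham values, with the hearts numbered 3 highest in each group.

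Replicate 3 of both groups stood apart in several of these genes. It had the highest Tagln and the highest Myh6 over Tnni3 ratio in its group, and the lowest ratios of Myh6 and Tnni3 over Tagln. These 2 arrays also had the largest shares of features at the lowest level (47.3% in CPB and 43.3% in sham, against 10.7% to 27.4% on the others). The part of that coarser measurement in the Tagln values was not tested. With ratios of steps above the lowest level, in which the array's offset cancels too, the CPB minus sham differences were 0.53 for Myh6 over Myh11, 0.66 for Tnni3 over Myh11, -0.52 for Myh6 over Tagln and -0.38 for Tnni3 over Tagln.

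**Figure D4:**
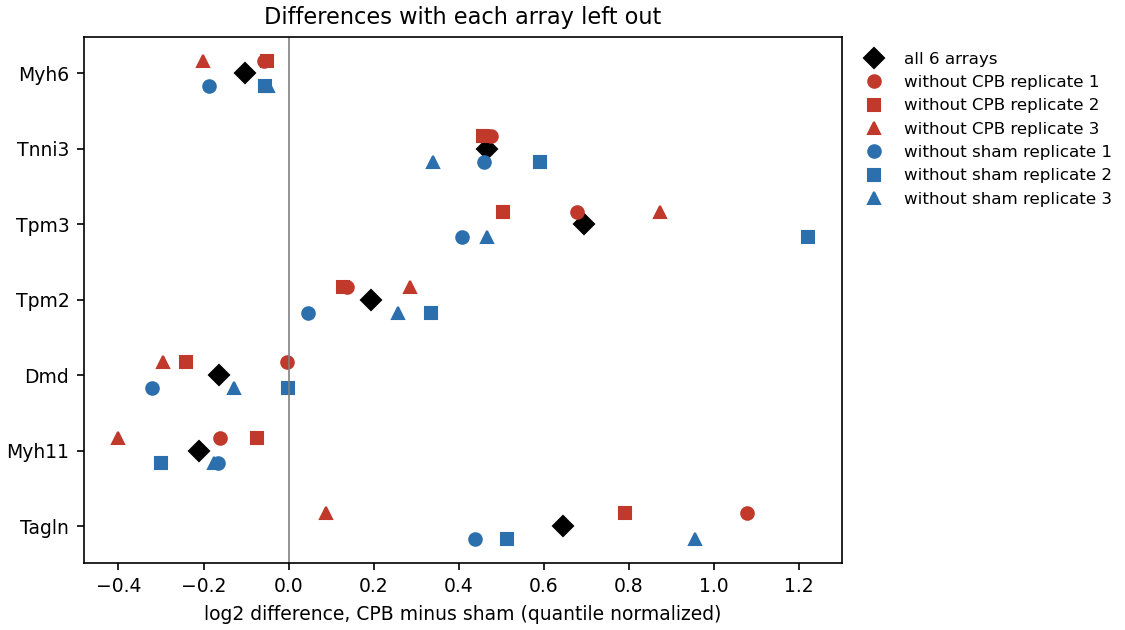
CPB minus sham log2 difference of each gene (horizontal axis, quantile normalized) with all 6 arrays (black diamonds) and with each array left out (coloured marks). Tagln runs from 0.09 without CPB replicate 3 to 1.08 without CPB replicate 1, and Tpm3 reaches 1.22 without sham replicate 2. Tnni3, whose normalized values follow its rank, stays between 0.34 and 0.59.

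The profiles most like each gene over the 6 hearts were sought among 468 other named features that exceed the lowest level in every heart, by the root mean square difference of centred log2 values. The nearest to Myh6 was Magt1 (0.08), to Tnni3 Rbbp9 (0.08), to Tpm2 Espn (0.09), to Tpm3 Adar (0.10), to Dmd S100a4 (0.03) and to Myh11 Soat1 (0.10). Second came Has2 for Myh6 (0.10), C1s for Tnni3 (0.11), Man2c1 for Tpm2 (0.11), Aldh6a1 for Tpm3 (0.27), Prg2 for Dmd (0.09) and Ybx3 for Myh11 (0.11). Tagln had no near neighbour: Acsm2 and Gucy1a1 (a subunit of the nitric oxide receptor guanylate cyclase) came closest at 0.38 each. Has2, Espn, Man2c1, S100a4 and Prg2 lay only 1 to 6 steps above the lowest level, where features on the same step share a value, and Myh6 took only 2 values. These likenesses say little beyond shared steps and ranks. None of the nearest features was another of the 7 genes, and Myh11 and Tagln lay 0.69 apart.

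Other genes of the contractile apparatus gave no call either. Of 18 listed thin filament genes 7 were measured, and 0 passed the threshold in each direction. All 7 differences were positive after quantile normalization (median 0.11, beside 41.9% of all features higher by more than 0.005), but Tpm1 was at -0.16 as deposited. Tpm1 lay 1, 4 and 1 steps above the lowest level in CPB hearts and 0, 3 and 1 steps in sham hearts. Its difference thus rests on values near the lowest level, with 1 sham array at it. Besides the 3 members, Tnnt2 differed by 0.10 (SE 0.30), Tpm1 by 0.11 (SE 0.36), Tpm4 by 0.09 (SE 0.32) and the actin-capping tropomodulin Tmod1 by 0.05 (SE 0.27). Of 23 thick filament genes only Myh6 and the embryonic myosin Myh3 were measured, and Myh3 differed by -0.09 (SE 0.33).

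Of 33 genes of the Z-disc and the dystrophin complex 6 were measured, Dmd among them, with 0 called. Nominally 2 were higher and 4 lower, beside 41.9% of all features higher and 52.2% lower. Itga7, the laminin receptor of muscle, was the one whose groups did not overlap, beside 4.22% of all features. Its means were 10.89 ± 0.09 for CPB against 11.18 ± 0.13 for sham (SD, n = 3 each). These differ by -0.29 (SE 0.29; limma adjusted p = 0.909), and 0.05 after median scaling. Pdlim5, a Z-disc scaffold, differed by 0.50 (SE 0.32), and the dystrophin relative utrophin (Utrn) by 0.28 (SE 0.34). Capn3, a muscle calpain, had no level above the lowest in the 3 CPB hearts and 1 sham heart, and its fold is left out.

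Of 24 smooth muscle contractile genes 6 were measured, 0 called, 5 nominally higher and 1 lower (Myh11), beside 41.9% of all features higher and 52.2% lower. Myh11, Tagln and Tpm2, already described above, are among these 6. As deposited, Tpm1 of this list was lower in CPB (-0.16) and Tpm2 was near 0 (0.01). Both tropomyosins are also counted among the thin filament genes and lay close to the lowest level, so the count is not one of smooth muscle genes alone. Among 4 of 20 muscle transcription factors measured, 0 were called. Mef2d differed by -0.29 (SE 0.34) and 0.10 after median scaling. The skeletal muscle factor Myog differed by -0.07 (SE 0.23), with 1 array of each group at the lowest level, and Myod1 was at it on all 3 sham arrays. Of 20 nonmuscle cytoskeleton genes 7 were measured and 0 called, among them Tagln3 at -0.69 (SE 0.38), Tuba1a at 0.65 (SE 0.38) and the brighter Cap1 probe at 0.44 (SE 0.36), while the other Cap1 probe was at -0.09 (SE 0.41). These differences rest on values near the lowest level. Tagln3 lay 1, 5 and 0 steps above it in CPB hearts and 2, 2 and 2 in sham hearts. Tuba1a lay 9, 27 and 3 steps above it in CPB hearts and 3, 13 and 1 in sham hearts. The brighter Cap1 probe lay 4, 13 and 3 steps above it in CPB hearts and 1, 7 and 2 in sham hearts.

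Markers of the cell types in a heart were read beside these values, and 0 markers of any type passed the threshold after quantile normalization. Summed marker levels in this paragraph are log2 values of the linear intensities as deposited, while the single-gene differences are quantile normalized unless said otherwise. Of 13 cardiomyocyte markers 5 were measured, Myh6 and Tnni3 among them, and their summed level ran from 19.13 to 19.36 in CPB and from 18.74 to 19.20 in sham hearts. Casq2, the calcium-binding protein of the sarcoplasmic reticulum, differed by 0.38 (SE 0.33). Pln (phospholamban, which restrains the calcium pump) differed by -0.28 (SE 0.27), with 14.57 ± 0.07 for CPB against 14.85 ± 0.19 for sham (SD, n = 3 each). Its groups did not overlap, as for 4.22% of all features, and its direction was opposite to that of Tnni3. After median scaling the Pln difference was 0.19. Of 12 smooth muscle and pericyte markers 3 were measured, Myh11 and Tagln among them (12.98 to 13.96 in CPB, 13.27 to 13.52 in sham), with Cspg4 at 0.25 (SE 0.40) and -0.08 as deposited. Of 9 fibroblast markers Sparc and Dcn were measured, and their summed level did not overlap between groups (13.42 to 14.47 in CPB, 14.82 to 15.16 in sham hearts). Sparc, a matrix glycoprotein, differed by -1.50 (SE 0.33; limma adjusted p = 0.371), and Dcn by -0.51 (SE 0.44). After quantile normalization the groups did not overlap for Sparc, as for 4.22% of all features, but overlapped for Dcn. Dcn was at 12.86, 13.21 and 11.32 in CPB hearts and at 13.70, 12.68 and 12.54 in sham hearts. As deposited, Sparc was the 1 feature called on the array (-1.40; limma adjusted p = 0.0328). The part of fibroblast content in the muscle gene values was not tested. Of 13 leukocyte markers 5 were measured (12.73 to 13.62 in CPB, 13.41 to 13.69 in sham), with S100a9 at -1.07 (SE 0.47), Cd8a at 0.92 (SE 0.47) and C1qb at -0.38 (SE 0.28). Nominally 1 was higher and 4 lower, beside 41.9% of all features higher and 52.2% lower. Cd8a lay 4, 6 and 10 steps above the lowest level in CPB hearts and 2, 4 and 1 in sham hearts. It was at 11.93 in CPB replicate 3 against 10.09 and 9.73 in CPB replicates 1 and 2. S100a9 lay 2, 33 and 4 steps above the lowest level in CPB hearts and 5, 48 and 7 in sham hearts. Of 13 skeletal muscle markers 3 were measured (15.33 to 16.33 in CPB, 15.76 to 16.12 in sham), with Ckm, which the heart also expresses, at -0.47 (SE 0.31). None of 8 endothelial markers was measured.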

How the data were processed

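The authors deposited 1 table of 1185 features by 6 arrays, whose deposited values fit a natural log scale; the labels name no unit, scanner or normalization. In each array the hyperbolic sine of the values lies on a grid of equal steps (to within 6.29e-06 of a step), 80.1 to 359.6 linear units wide, above a lowest level. Such an offset and factor per array may already hold a normalization, which the sources used here do not give.

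The hyperbolic sine, times 2, gave linear values, which were quantile normalized with ties averaged and expressed as log2 with no pseudocount. This reduces the brightest features to their rank, so values as deposited are given as well. Groups, taken from titles, were compared by two-sided tests in limma (version 3.58.1 under R version 4.3.3; lmFit and trended eBayes), with Benjamini-Hochberg adjustment over 1185 features and a threshold of 0.05. The fit was tested on simulated data. Within-array ratios were tested by exact permutation. The labels do not say how arrays were processed together, so p-values measure no more than spread between these 6 arrays. The trended eBayes fit draws each feature's spread toward that of features of like intensity. SEs, intervals and p-values from limma, also for Sparc as deposited, thus do not rest on a gene's own SDs alone. Tagln as deposited had SDs of 1.10 for CPB and 0.57 for sham but an SE of 0.36. For Tnni3 after quantile normalization the SDs were 0.08 and 0.24, and the SE was 0.28.

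The genes, lists and tests were chosen with earlier results of these data known. Named beyond the 7 genes were up to 3 genes per list with the smallest unadjusted p, the 2 nearest in profile to each of the 7, and examples chosen after their values were seen (Tnnt2, Tpm1, Tpm4, Tmod1, Myh3 and Utrn). Some single-gene results of the smooth muscle list are not reported here. Gene symbols are those of the platform annotation, and 1106 of 1113 single-symbol features matched RefSeq (GRCr8) by gene identifier. Probe sequences were not used here, so hybridisation between related genes, such as cardiac myosins or tropomyosins, was not tested.

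Deviations from the group means correlated across features at 0.240, 0.277 and 0.296 for CPB and sham arrays numbered 1, 2 and 3 (0.0584, 0.300 and 0.442 as deposited). The numbers may thus pair the hearts, though no label ties them to a litter, day or batch. Arrays of a number also had related shares of features at the lowest level: 27.4% and 25.9%, 10.7% and 20.5%, and 47.3% and 43.3% in CPB and sham arrays 1, 2 and 3. The part of these shares in the correlations was not tested. Alternatives were the replicate number as a block, no further normalization, median and 75th percentile scaling, a pseudocount at the 25th percentile, features above the lowest level on all arrays, no variance trend, and leaving out each array. For the scaling, the 75th percentile was taken over features above the lowest level on all arrays and the median over all features.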

Additional observations from a re-analysis of the deposited data

How the results depend on the processing

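Of 91 comparisons of a muscle gene's difference with an alternative, 4 reversed, 2 (both for Dmd) came to within 0.005 of 0, and the adjusted p ran from 0.376 to 1. The replicate block and the fit without a variance trend return the main difference by construction, so they could not reverse. Only the deposited values and the median and 75th percentile scalings leave quantile normalization. Myh6 reversed as deposited (0.29), after median scaling (0.69) and after 75th percentile scaling (0.36), and Myh11 after median scaling (0.15). These scalings give each array 1 factor, so they move all deposited differences by the same amount. The replicate block (paired fit) changed no call, with limma adjusted p of 0.724 for Tnni3, Tpm3, Tagln and Myh11, 0.758 for Tpm2 and Dmd and 0.914 for Myh6. Of 36 comparisons of a ratio with an alternative 4 reversed: with each array left out in turn, Myh6 over Tagln ran from -0.67 to 0.14 and Tnni3 over Tagln from -0.74 to 0.64. Paired within replicate numbers, the exact p was 0.25 for both ratios over Myh11, the smallest that 3 pairs allow, and 0.5 and 1 for Myh6 and Tnni3 over Tagln. Pairing keeps the difference of means of a ratio, so no reversal was possible there. The features called over the whole array numbered 0 after quantile normalization, 1 as deposited (Sparc), and 0 to 1 with each array left out in turn (Sparc, without CPB replicate 1); the cause was not tested. The ratio of steps was chosen after seeing the data.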
